A study of Rattus norvegicus with 12 samples.

Results

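Th1 cytokines were compared with Th2 cytokines in rat mixed glial cultures. Of the 12 arrays of the series, 6 were used for this comparison, 3 labelled Th1 and 3 labelled Th2. They were taken by the name of the mixture and paired by experiment, so that each of the 3 separate experiments gave 1 pair. The cultures were grown from neonatal rat brain by shaking cells off, and hold oligodendrocytes with astrocytes and microglia. They were kept in a serum-poor medium (2%) and received a mixture for 6 hours, each cytokine at 10 ng/ml. The Th1 mixture held IL-2, IFN-γ, TNF-α and G-CSF. The Th2 mixture held IL-5, IL-10, G-CSF and TGF-β1 from pig, and the methods of the study add IL-4, which the sample labels do not name. G-CSF was therefore in both mixtures. The other 6 arrays are 3 control cultures in the same medium without cytokines, and 3 cultures given monocyte/macrophage (M/M) cytokines. They were used to estimate the spread and to check the labels. The methods of the study list TNF-α in the M/M mixture as well, beside interleukins.

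IFN-γ signalling acts on short palindromes called GAS elements in promoters and switches on IRF1. IRF1 and its relatives bind another motif, the interferon-stimulated response element (ISRE), and many genes of antigen presentation carry it. TNF-α acts mainly through NF-κB, which binds κB sites in the promoters of chemokine and adhesion genes. TGF-β1 acts through Smad proteins and IL-10 through STAT3, and both are known for restraining activated microglia.

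Values are linear dChip signals, and differences are given as log2 of the Th1 signal over the Th2 signal in the same experiment. A log2 difference of 1 is 2-fold. Median signals were 57.0 and 61 for the Th1 arrays and 58.4 and 56.0 for the Th2 arrays of experiments 1 and 2, and 24.5 and 29.1 for those of experiment 3. The summed signal per array was 18300 to 26500 for 14 astrocyte markers, 7620 to 21600 for 11 oligodendrocyte and myelin markers and 12800 to 21600 for 19 microglia and macrophage markers. Mbp, the myelin basic protein gene, ranged from 2357 to 6881 in the Th1 arrays and from 2680.3 to 5984 in the Th2 arrays. T and B cell markers were close to background, with 11 genes that summed to between 226 and 508 per array.

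The 3 pairs did not move alike. IFN-γ was in the Th1 mixture alone, and TNF-α in the Th1 and M/M mixtures. In experiment 3 the genes that respond to them went against the Th1 and Th2 labels. The 19 interferon-inducible genes measured had a median of 2.37 and 2.31 (log2 over the control culture of the same experiment) in the Th1 arrays of experiments 1 and 2, but -0.60 in the array labelled Th1 in experiment 3. In that experiment the median was 2.83 in the array labelled M/M and 0.62 in the array labelled Th2. The 22 NF-κB response genes had medians of 0.99 and 1.60 in the Th1 arrays of experiments 1 and 2. In experiment 3 the median was 0.31 in the array labelled Th1 and 1.94 in that labelled Th2. The arrays labelled M/M had the highest NF-κB median of each experiment, at 1.89, 2.13 and 2.54. The lists for the Th2 cytokines moved less. The TGF-β response had medians of 0.14 and 0.38 in the Th2 arrays of experiments 1 and 2 and 0.26 in the array labelled Th2 in experiment 3, against -0.00015, 0.58 and 0.0010 in the arrays labelled Th1. The IL-4 and IL-10 response had 0.08, 0.71 and 0.26 against 0.05, 0.68 and -0.14. In experiment 3 both of these medians were higher in the array labelled Th2, but so were most probe sets (median Th1 over Th2 ratio -0.22 on the log2 scale). The arrays labelled M/M had 0.01, 0.66 and 0.62 for the TGF-β response and 0.16, 0.87 and 0.76 for the IL-4 and IL-10 response. These lists were therefore not particular to the Th2 arrays. Over the 4370 brighter probe sets (those at or above the median of mean log2 signal), the array labelled Th1 in experiment 3 correlated with the Th1 arrays of experiments 1 and 2 at r = -0.11 and r = -0.05, each array set against its own control. The Th1 arrays of experiments 1 and 2 correlated at r = 0.41 with each other, and the Th2 arrays at r = 0.32. The array labelled Th2 in experiment 3 correlated with those Th2 arrays at r = 0.19 and r = 0.14, with the Th1 arrays at 0.44 and 0.36, and with the M/M arrays at 0.59 and 0.39. The array labelled M/M in experiment 3 correlated with the Th1 arrays at 0.59 and 0.38 and with the M/M arrays at 0.51 and 0.31. These are correlations across probe sets, which are not independent replicates. Whether arrays of experiment 3 were exchanged was not tested and no array was moved to another group. The results below are therefore given with the arrays or ratios of experiment 3 apart, and for genes that passed in experiments 1 and 2 the difference over 3 experiments is given as well. Experiment 3 was set apart after its values were seen. Adjusted p values from experiments 1 and 2 alone therefore do not keep their error rate.

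**Figure D1:**
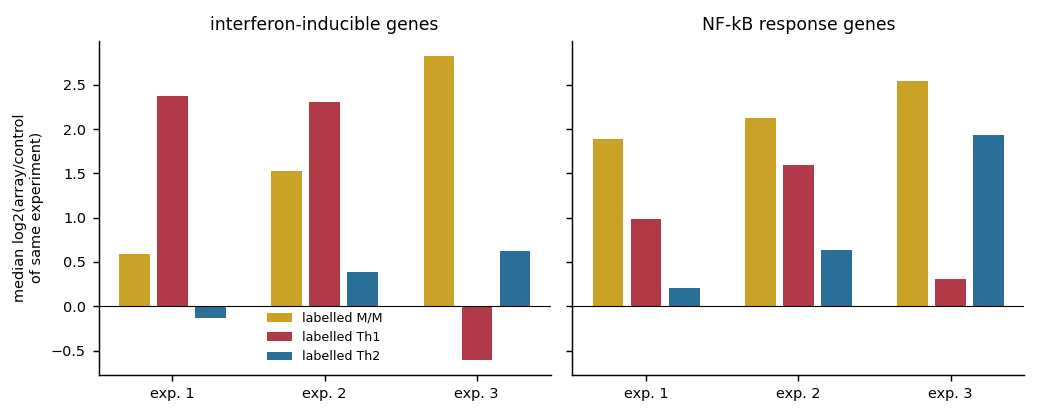
Median log2 signal of 19 interferon-inducible genes (left) and 22 NF-κB response genes (right) in each treated array over the control array of the same experiment, by the label of the array (bars start at 0). The interferon-inducible median is highest in the Th1 arrays of experiments 1 and 2 (2.37 and 2.31) and in the array labelled M/M of experiment 3 (2.83).

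The Th1 over Th2 ratios of experiments 1 and 2 correlated at r = 0.70 over the brighter probe sets. Those of experiments 1 and 3 correlated at r = -0.42, and those of experiments 2 and 3 at r = -0.45. Over all 8740 probe sets the same values were 0.28, -0.14 and -0.07. The pairs share no array. Of the brighter probe sets, 79 were more than 2-fold higher with Th1 cytokines in both experiments 1 and 2, and 76 of them had the opposite sign in experiment 3, 58 by more than 2-fold. Their median log2 difference was 2.06 in experiments 1 and 2 and -1.84 in experiment 3. Another 7 were more than 2-fold lower in both, and 6 of these had the opposite sign in experiment 3. Of all brighter probe sets, 37.1% were higher in experiment 3 and 6.11% were lower by more than 2-fold. The median of all probe sets was -0.03, 0.09 and -0.22 in the 3 experiments.

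**Figure D2:**
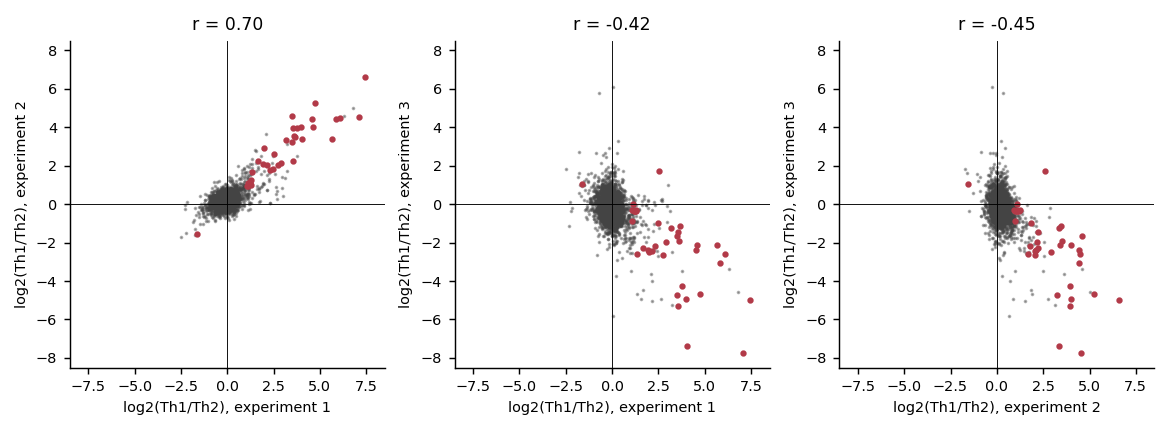
Log2 of Th1 over Th2 signal of 4370 brighter probe sets in 1 experiment against another, with the 37 of them that passed the threshold in experiments 1 and 2 as larger red points. The points rise together for experiments 1 and 2 (r = 0.70) and run the opposite way against experiment 3 (r = -0.42 and -0.45).

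With all 3 experiments, limma with experiment as a block called 0 of 8740 probe sets (0%), with 53 higher and 109 lower at an unadjusted p under 0.05 and a lowest adjusted p of 0.9997. Each 3-experiment difference given below therefore has an adjusted p of at least that value. In experiments 1 and 2, which leave 8 arrays and 3 residual degrees of freedom, 41 probe sets passed (0.469%). Of these, 40 were higher with Th1 cytokines (0.458%) and 1 was lower (0.0114%). They hold 24 different genes, with 8 probe sets that do not carry 1 symbol. In experiment 3 the ratio was below 1 for 39 of the 40, for 30 of them by more than 2-fold, where 35.6% of all probe sets were higher and 16.4% more than 2-fold lower. These calls depend on the block: without it, limma called 0 in experiments 1 and 2, with 170 higher and 72 lower at an unadjusted p under 0.05. They also rest on few arrays, since leaving out the Th1 array of experiment 1 or 2 left 3 and 0 calls, and leaving out the Th2 array of experiment 1 or 2 left 0 and 5.

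**Figure D3:**
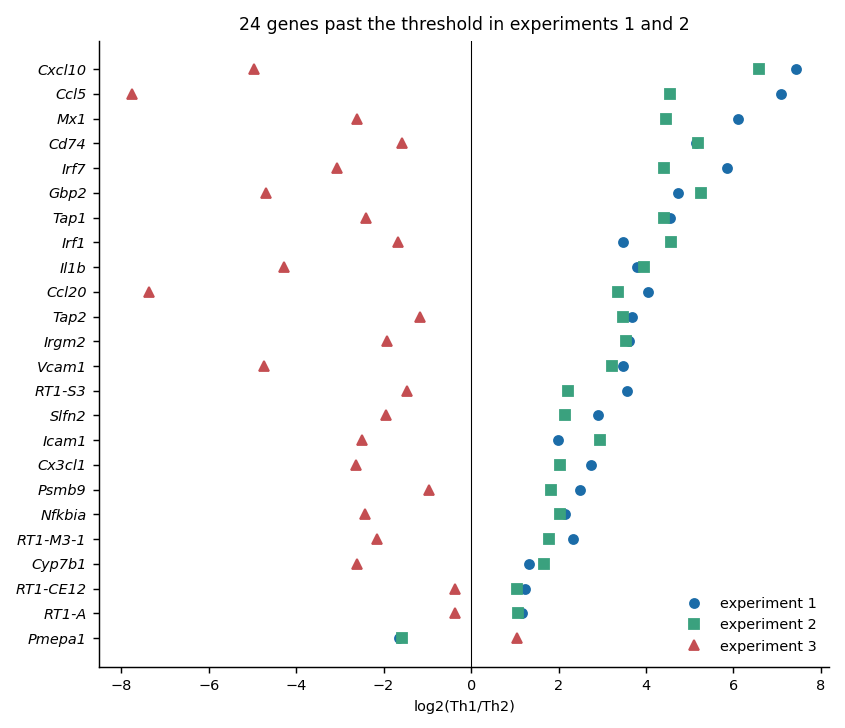
Log2 of Th1 over Th2 signal in each experiment for the 24 genes past the threshold in experiments 1 and 2, each by its brightest probe set that passed. For 23 genes the points of experiments 1 and 2 lie above 0 and that of experiment 3 below it, and for Pmepa1 the reverse is seen.

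The genes with the largest differences include targets of IFN-γ and TNF-α whose promoters hold the motifs named above. To show where these letters stand, the 250 bases before the start of transcription are printed for 6 of the genes that passed in experiments 1 and 2, chosen for the interferon, antigen presentation, adhesion and NF-κB roles they cover. Sequences are from RefSeq (build GRCr8), on the strand of the gene, with each match in capitals.
Cxcl10, chr14:15988816-15989065, plus strand: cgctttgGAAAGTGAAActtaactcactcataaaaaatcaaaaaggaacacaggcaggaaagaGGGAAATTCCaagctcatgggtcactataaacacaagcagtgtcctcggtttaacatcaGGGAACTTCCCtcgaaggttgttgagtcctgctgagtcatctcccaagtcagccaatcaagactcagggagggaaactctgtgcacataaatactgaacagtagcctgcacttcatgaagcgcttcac
Irf1, chr10:38417685-38417934, plus strand: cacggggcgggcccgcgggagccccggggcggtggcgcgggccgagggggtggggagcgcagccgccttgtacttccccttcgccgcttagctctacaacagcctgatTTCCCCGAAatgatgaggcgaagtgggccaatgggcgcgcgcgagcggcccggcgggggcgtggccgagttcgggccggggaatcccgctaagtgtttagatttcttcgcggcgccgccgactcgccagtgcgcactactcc
Gbp2, chr2:234005477-234005726, plus strand: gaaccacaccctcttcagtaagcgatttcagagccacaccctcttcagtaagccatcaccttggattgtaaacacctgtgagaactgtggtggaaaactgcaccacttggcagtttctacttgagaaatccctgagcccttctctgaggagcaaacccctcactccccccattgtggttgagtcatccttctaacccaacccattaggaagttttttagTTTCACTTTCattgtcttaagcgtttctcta
Tap1, chr20:4668544-4668793, minus strand: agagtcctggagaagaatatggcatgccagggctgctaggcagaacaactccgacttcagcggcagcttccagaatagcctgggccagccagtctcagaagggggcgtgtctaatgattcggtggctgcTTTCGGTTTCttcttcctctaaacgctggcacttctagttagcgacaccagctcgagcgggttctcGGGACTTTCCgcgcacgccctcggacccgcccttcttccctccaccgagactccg
Icam1, chr8:27829595-27829844, plus strand: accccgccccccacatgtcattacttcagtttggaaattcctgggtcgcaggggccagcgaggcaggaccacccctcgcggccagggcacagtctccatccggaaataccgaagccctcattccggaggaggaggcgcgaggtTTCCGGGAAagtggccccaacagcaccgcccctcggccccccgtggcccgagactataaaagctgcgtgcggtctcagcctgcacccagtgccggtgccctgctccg
Nfkbia, chr6:78597073-78597322, minus strand: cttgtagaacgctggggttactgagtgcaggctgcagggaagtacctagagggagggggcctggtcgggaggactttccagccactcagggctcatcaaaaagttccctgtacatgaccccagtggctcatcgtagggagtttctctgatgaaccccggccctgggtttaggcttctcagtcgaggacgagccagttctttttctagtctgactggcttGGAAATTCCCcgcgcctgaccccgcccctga

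Motifs were searched on both strands in windows from 250 bases before to 50 bases after the start, as GAAA and GAAA with 2 bases of any kind between them for the ISRE, TTC and GAA with 3 between for GAS, and GGG and TTCC with 3 between for κB. Cxcl10 holds an ISRE match 243 bases before its start and κB matches at 187 and 128 bases, the latter matching on both strands in overlapping letters. Irf1 holds a GAS match at 142 bases and Icam1 one at 107 bases. Gbp2 holds an ISRE match at 31 bases, and Nfkbia a κB match at 31 bases. Tap1 holds an ISRE match at 121 bases and a κB match at 55 bases, and its window shares 44 bases with that of Psmb9 on the opposite strand. Among 33469 RefSeq promoters, 3.92% held an ISRE match, 8.87% a GAS match and 5.37% a κB match, and among 3872 genes of the array with a promoter these were 3.36%, 7.52% and 6.77%. Of the 16 interferon-inducible genes with a promoter, 10 held an ISRE match, 6 a GAS match and 2 a κB match. Of 20 genes with a promoter among those higher with Th1 cytokines in experiments 1 and 2, 8, 5 and 5 did. For 31 TGF-β response genes the numbers were 0, 0 and 1. A match is a description of these letters and not evidence of binding.

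Interferon-inducible genes were higher with Th1 than with Th2 cytokines in experiments 1 and 2 and mostly lower in experiment 3. Of 19 measured out of 55 listed, 17 were higher in both experiments 1 and 2, where 29.1% of all probe sets were, and 11 by more than 2-fold in both, where 1.66% were. The median log2 difference was 2.40 and 1.57 in experiments 1 and 2 and -1.06 in experiment 3. In experiments 1 and 2, 5 genes passed, all higher with Th1 cytokines, where 0.458% of all probe sets passed in this direction. With all 3 experiments the median was 0.95 and 0 passed.

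Cxcl10 encodes a chemokine that draws activated T cells. Its signal was 3640.4 and 1874 in the Th1 arrays of experiments 1 and 2, and 23.8 in the array labelled Th1 in experiment 3. In the Th2 arrays it was 21.0, 19.5 and 744. Both Th2 arrays of experiments 1 and 2 were below their controls, which had 31.9 and 20.9, and both Th1 arrays were above every Th2 array, whereas in experiment 3 the order was turned. The log2 difference was 7.01 (SE 0.44, adjusted p = 0.00587) in experiments 1 and 2 and 3.02 (SE 1.77) in all 3. Where the lower signal is close to background, as here, the size of a ratio is not exact. With all signals raised to at least 16, the calls in experiments 1 and 2 fell from 41 to 4 (2 higher, 2 lower). That floor does not alter Cxcl10, whose signals are above 16 in all arrays. Nor does it alter the called probe sets of Icam1, Nfkbia, Psmb9 and Cx3cl1 in experiments 1 and 2. Calls were therefore also lost among probe sets whose signals the floor leaves as they are, and the cause was not tested. Adding 16 to all signals instead gave 46 higher and 2 lower.

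Irf1, the transcription factor induced early by IFN-γ, had signals of 2850 and 1761 with Th1 cytokines and 256 and 74.2 with Th2 cytokines in experiments 1 and 2. In experiment 3 the arrays labelled Th1 and Th2 had 116 and 373. The Th1 arrays of experiments 1 and 2 were above every Th2 array, and the array of experiment 3 labelled Th1 was not. The log2 difference was 4.02 (SE 0.29, adjusted p = 0.00815) without experiment 3 and 2.12 (SE 1.01) with it. Another probe set of Irf1 gave 1.19 and 0.72 in experiments 1 and 2 and did not pass (adjusted p = 0.331), so the size differs between probe sets while the direction does not.

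Irf7, which amplifies interferon responses, had 1299 and 371 with Th1 cytokines against 22.6 and 17.4 with Th2 cytokines, and 28.1 against 236 in experiment 3. The antiviral GTPase gene Mx1 had 1895 and 464 against 27.7 and 21.0, and 36.9 against 224 in experiment 3. The log2 differences without experiment 3 were 5.13 for Irf7 (SE 0.49, adjusted p = 0.0184) and 5.28 for Mx1 (SE 0.48, adjusted p = 0.0155). With all 3 experiments they were 2.40 (SE 1.33) and 2.65 (SE 1.29). Both had lower ratios in experiment 2 than in experiment 1.

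Gbp2, a guanylate-binding protein that acts in defence against microbes inside cells, had 2603 and 1281 with Th1 cytokines against 97.5 and 33.3 with Th2 cytokines. In experiment 3 it had 35.4 and 909. Its log2 difference was 5.00 (SE 0.62, adjusted p = 0.0436) without experiment 3 and 1.77 (SE 1.39) with it. Irgm2, an interferon-inducible GTPase, and Slfn2, of the Schlafen family, also passed, with log2 differences of 3.58 and 2.53 there, and were at -1.93 and -1.95 in experiment 3. Over 3 experiments they had 1.74 (SE 1.09) and 1.04 (SE 0.67).

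Other antiviral genes had large ratios without passing. Rsad2, which encodes viperin, had 2950 and 980 with Th1 cytokines against 26.9 and 30.6 with Th2 cytokines, and 30.9 against 725 in experiment 3 (adjusted p = 0.062 in experiments 1 and 2). It passed there with arrays centred on their medians (adjusted p = 0.0139). Stat2, Oas1a and Eif2ak2 had log2 ratios of 2.56, 2.94 and 2.40 in experiment 1 and 1.57, 1.42 and 2.16 in experiment 2, and -1.22, -0.91 and -2.42 in experiment 3. Irf8, a factor of the myeloid lineage, was 1 of 2 genes of the list higher in all 3 pairs (10.5%, where 9.46% of all probe sets were), with 0.34, 0.95 and 0.58, and did not pass. The other was Adar, which edits double-stranded RNA, with 0.57, 0.52 and 1.74.

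**Figure D4:**
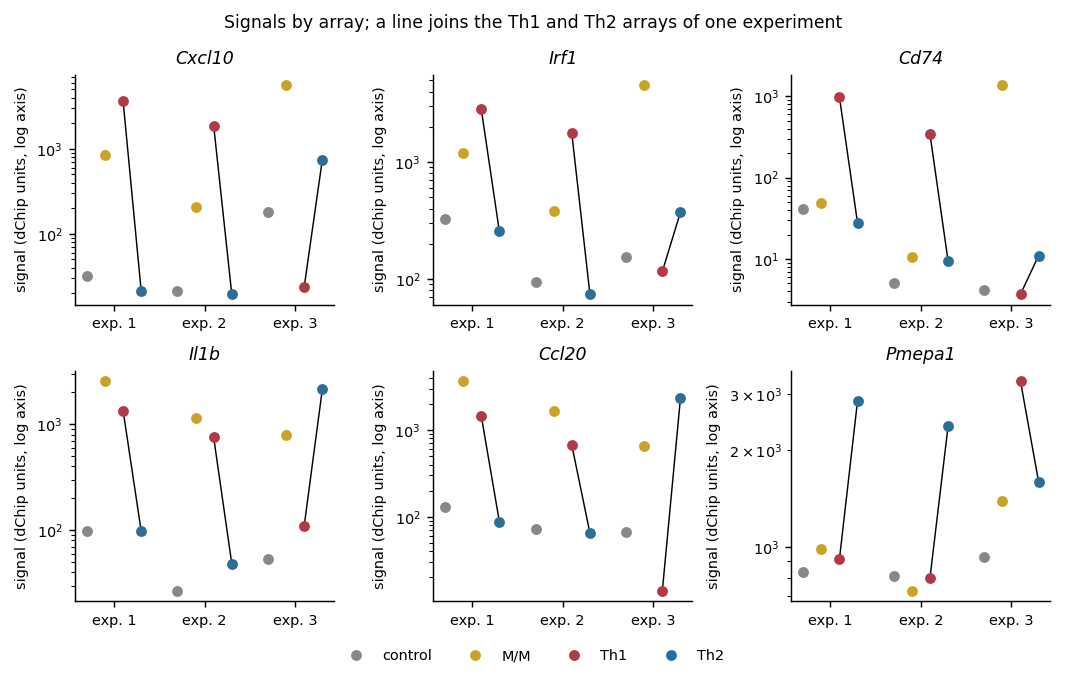
Signals of 6 genes in all 12 arrays on a log axis, by the label of the array, with a line joining the Th1 and Th2 arrays of 1 experiment. Cxcl10, Irf1, Cd74, Il1b and Ccl20 fall from Th1 to Th2 in experiments 1 and 2 and rise in experiment 3, and Pmepa1 rises in experiments 1 and 2 and falls in experiment 3. The rise of Cd74 is from 3.7 to 11, below the median signals of those arrays (24.5 and 29.1).

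Genes of antigen processing and the MHC were shifted less. Of 29 measured, 22 were higher in both experiments 1 and 2 (29.1% of all probe sets were) and 8 by more than 2-fold in both (1.66% of all). The median was 0.85 and 0.50 in experiments 1 and 2 and -0.31 in experiment 3, and 5 genes passed in experiments 1 and 2 by their brightest probe set, where 0.458% of all probe sets passed in this direction. Cd74 encodes the invariant chain that guides MHC class II molecules. Its signal was 989 and 344 with Th1 cytokines against 28.0 and 9.49 with Th2 cytokines, and in experiment 3 it was 3.7 and 11. Both values of experiment 3 were below the median signals of their arrays (24.5 and 29.1), so their order says little. The array labelled M/M in experiment 3 reached 1379.7, above all other arrays. The log2 difference of Cd74 was 5.16 (SE 0.42, adjusted p = 0.0126) without experiment 3 and 2.92 (SE 1.78) with it, and 3 of its 4 probe sets passed without experiment 3.

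The class II chain gene RT1-Da had 413 and 104 with Th1 cytokines against 47.2 and 40.0 with Th2 cytokines, and 14.8 against 19.1 in experiment 3, and did not pass (adjusted p = 0.543 without experiment 3). Another probe set of RT1-Da had larger ratios of 5.29, 3.15 and -0.46 and did not pass either (adjusted p = 0.0528). The genes for the class II peptide editor went the other way. RT1-DMa had 701 and 702 with Th1 cytokines against 1045 and 1007 with Th2 cytokines, and RT1-DMb had 846 and 564 against 1117 and 844. Both were higher in the array labelled Th1 than in that labelled Th2 in experiment 3 (each 0.47 on the log2 scale), and neither passed (adjusted p = 0.341 and 0.486 without experiment 3).

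The peptide transporter gene Tap1 had 1003 and 548 with Th1 cytokines against 43.0 and 25.6 with Th2 cytokines, and 39.5 against 209 in experiment 3. The log2 difference of this probe set was 4.48 (SE 0.25, adjusted p = 0.00445) without experiment 3 and 2.19 (SE 1.2) with it. A brighter probe set of Tap1 gave only 0.85 and 0.84 in experiments 1 and 2 and did not pass (adjusted p = 0.188). Its partner Tap2 had 389 and 97.9 against 30.4 and 8.79, and 42.8 against 95.7 in experiment 3 (log2 difference 3.58, SE 0.46, adjusted p = 0.0483 without it, and 2.00 with it, SE 0.81). Psmb9, a subunit of the immunoproteasome that cuts peptides for class I molecules, had 1681 and 629 against 300.3 and 177, and 88.6 against 172 in experiment 3. It passed without experiment 3 with a log2 difference of 2.16 (SE 0.19, adjusted p = 0.0154) and had 1.12 (SE 0.75) with it, while Psmb8 at 1.85 and 0.87 did not (adjusted p = 0.285). Another probe set of Psmb9 gave 0.73 and 0.81 in experiments 1 and 2 and did not pass either (adjusted p = 0.279).

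Of the class I genes, RT1-A was bright in every array. It had 3159 and 2355 with Th1 cytokines against 1417 and 1116 with Th2 cytokines, and 627 against 804 in experiment 3. Its log2 difference of 1.12 was small beside those above but passed without experiment 3 (SE 0.12, adjusted p = 0.0259), and with it the difference was 0.63 (SE 0.39). RT1-CE12, RT1-S3 and RT1-M3-1 passed as well without experiment 3, with log2 differences of 1.14, 2.89 and 2.06. Their ratios were 1.23, 3.56 and 2.33 in experiment 1, 1.06, 2.22 and 1.79 in experiment 2, and -0.36, -1.47 and -2.16 in experiment 3. Over 3 experiments their differences were 0.64 (SE 0.37), 1.44 (SE 0.92) and 0.65 (SE 0.87). Class I genes are near-identical copies, and most of these probe sets are of a kind that can bind several family members, so it is uncertain which gene each reports. One probe set shared by RT1-A, RT1-CE16 and RT1-A1 was the only one of the 40 that was higher in all 3 pairs, with log2 ratios of 2.53, 2.60 and 1.74, and even so it did not pass with 3 experiments (limma, unadjusted p = 0.0075). B2m, the light chain of class I molecules, had ratios of 1.06, 1.34 and -0.51 and did not pass.

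NF-κB response genes were higher with Th1 cytokines in experiments 1 and 2 and lower in experiment 3. Of 22 measured, 16 were higher in both experiments 1 and 2 (29.1% of all probe sets were). In experiment 3, 2 were higher, where 35.6% of all probe sets were, and 20 were lower, 15 of them by more than 2-fold, where 16.4% of all probe sets were. The medians were 0.70, 0.80 and -1.81, and with all 3 experiments the median was -0.04. Nfkbia encodes the inhibitor that NF-κB itself induces. Its signal was 1129 and 609 with Th1 cytokines against 254 and 148 with Th2 cytokines, and 86.5 against 468 in experiment 3. The log2 difference was 2.10 (SE 0.13, adjusted p = 0.0059) without experiment 3 and 0.59 (SE 0.63) with it.

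The adhesion molecules Icam1 and Vcam1, which hold leukocytes, also passed. Icam1 had 1863 and 1413 with Th1 cytokines against 471 and 184 with Th2 cytokines, and 321 against 1811 in experiment 3. Vcam1 had 1504 and 521 against 135 and 55.5, and 41.7 against 1108 in experiment 3. Without experiment 3 their log2 differences were 2.46 (SE 0.25, adjusted p = 0.0259) and 3.35 (SE 0.41, adjusted p = 0.0436), and with it 0.81 (SE 0.69) and 0.66 (SE 1.15). Another probe set of Vcam1 had 3.13 without experiment 3 and did not pass (adjusted p = 0.0582). The Th2 arrays of experiments 1 and 2 were near control for Icam1, which had 410.1 and 171 there. Cd40, a costimulatory receptor, had log2 ratios of 1.33, 2.33 and -1.51 and Sod2, the mitochondrial superoxide dismutase, 0.92, 1.0 and -1.75, and neither passed. Lcn2, an iron-binding acute phase protein, had 0.05 and 0.67 in experiments 1 and 2 and -5.81 in experiment 3.

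Among 41 cytokines and chemokines, 20 were higher in both experiments 1 and 2 and 4 lower in both, where 29.1% and 21.9% of all probe sets were. Medians were 0.21 and 0.14, and -1.25 in experiment 3, where 5 were higher and 36 lower, while 35.6% of all probe sets were higher there. The genes that passed without experiment 3 were Ccl5, Ccl20, Cx3cl1 and Il1b in addition to Cxcl10, which was counted with the interferon-inducible genes. Il1b, for interleukin-1β, had 1347 and 753 with Th1 cytokines against 97.6 and 48.3 with Th2 cytokines, and 110.3 against 2145 in experiment 3. The log2 difference was 3.87 (SE 0.27, adjusted p = 0.00696) without experiment 3 and 1.16 (SE 1.13) with it. All 3 probe sets of Il1b passed without experiment 3.

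Ccl20, which draws cells that carry CCR6, had 1461 and 670.3 against 88.0 and 64.9, and 14.1 against 2345 in experiment 3. It lost its difference with 3 experiments, at 0.015 (SE 1.48), from 3.71 (SE 0.21, adjusted p = 0.00445) without experiment 3. Ccl5, a chemokine for T cells and monocytes, had 1960.1 and 298 against 14.4 and 12.8, and 2.1 against 451 in experiment 3 (log2 difference 5.81, SE 0.72, adjusted p = 0.0436 without it, and 1.29 with it, SE 2.04). Cx3cl1, the fractalkine gene, had 1279 and 542 against 192 and 132, and 106 against 660.2 (2.38, SE 0.26, adjusted p = 0.0318 without experiment 3, and 0.71 with it, SE 0.73). Other probe sets of Cx3cl1 had log2 differences of 1.76 and 1.74 without experiment 3 and did not pass (adjusted p = 0.119 and 0.194). Ccl3, Cxcl2 and Il1a showed the same order of arrays without passing, with ratios of 2.09, 3.21 and 1.36 in experiment 1, 3.64, 3.15 and 1.90 in experiment 2 and -3.61, -5.23 and -4.65 in experiment 3. The signals of the T cell cytokines themselves were low in these cultures. Il2, Il4 and Ifng were between 1.1 and 33.8 in the 6 arrays, and their ratios in experiments 1 and 2 were from -0.69 to 0.55. Tnf was between 3.2 and 32.1.

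Higher with Th2 than with Th1 cytokines was Pmepa1, a TGF-β target that dampens Smad signalling and the 1 probe set that passed in this direction in experiments 1 and 2. With centred or quantile-normalized arrays 8 and 9 passed there. At an unadjusted p under 0.05, 124 probe sets were lower and 332 higher with Th1 cytokines in experiments 1 and 2, and 109 lower and 53 higher over 3 experiments. Its signal was 2848 and 2378 with Th2 cytokines against 913 and 799 with Th1 cytokines and 832 and 810.3 in control cultures. In experiment 3 the array labelled Th1 had 3286 and that labelled Th2 had 1595, against 932 in the control. The log2 difference was -1.61 (SE 0.13, adjusted p = 0.0123) without experiment 3 and -0.72 (SE 0.39) with it.

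Over the TGF-β response genes no further gene passed. Of 43 measured, Pmepa1 included, 12 were lower with Th1 cytokines in both experiments 1 and 2 and 11 were higher in both, where 21.9% and 29.1% of all probe sets were. By more than 2-fold, 2 were lower in both, Pmepa1 and Ltbp2 (a latent TGF-β binding protein with signals of at most 7.11), where 0.755% of all probe sets were, and 0 were higher. The medians were -0.11, 0.11 and -0.30. Id1 and Id3, inhibitors of differentiation that respond to this family, had ratios of -0.42 and 0.30 in experiment 1, 0.10 and 1.07 in experiment 2 and -0.52 and -0.57 in experiment 3. Lox, which cross-links collagen, had 638 against 192 in experiment 1 and 76.4 against 66.1 in experiment 2 (Th2 against Th1), and 252 against 507 in experiment 3, and did not pass. The inhibitory gene Smad7 had ratios of -0.20, 0.01 and -0.11.

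IL-4 and IL-10 response genes showed no common direction, with medians of -0.29, 0.07 and -0.40 over 20 genes. Of these, 5 were lower with Th1 cytokines in all 3 pairs and 1 higher, where 13.1% and 9.46% of all probe sets were. In experiments 1 and 2, 1 gene of the list passed, higher with Th1 cytokines, where 0.458% of all probe sets did. Fcgr2b, the inhibitory Fc receptor, and Igf1, a growth factor made by microglia, were lower with Th1 cytokines in all 3 pairs. Fcgr2b had ratios of -0.72, -0.59 and -0.73, and Igf1 -0.44, -0.37 and -0.14. Neither passed. Arg1, the arginase that marks IL-4 activation of macrophages, had 133 with Th2 against 21.9 with Th1 cytokines in experiment 1, 20.1 against 12.6 in experiment 2 and 30.2 against 30.5 in experiment 3.

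Among 23 receptors and signal transducers of the added cytokines none passed with or without experiment 3. Ifngr1, the ligand-binding chain of the IFN-γ receptor, had 107 and 139 with Th1 cytokines against 301 and 284 with Th2 cytokines and 327 and 211 in control cultures, whereas experiment 3 had 86.8 against 37.7. Its log2 difference of -1.27 in experiments 1 and 2 had an adjusted p of 0.259 (SE 0.27), and 0.0127 with arrays centred on their medians. Vsir, an inhibitory receptor for T cells, had 100.05 and 72.3 with Th1 cytokines against 340.01 and 219 with Th2 cytokines, and 215 against 69.4 in experiment 3 (adjusted p = 0.062 without it, 0.00305 with arrays centred). Jak2, a kinase of the IFN-γ receptor, had ratios of 1.32, 0.61 and -0.92. Stat6 and Smad3, which carry the signals of IL-4 and TGF-β, had ratios of -0.05 and -0.16 in experiment 1, -0.13 and 0.16 in experiment 2 and -0.96 and -0.09 in experiment 3.

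Of the probe sets that moved the same way in all 3 pairs, none passed over 3 experiments, and the class I probe set described above was the one that passed in experiments 1 and 2. Higher in all 3 were 827 of 8740 (9.46%), and lower in all 3 were 1142 (13.1%). The genes named below were picked among these for their low unadjusted p, so that p is no support for them. Rgs1, a regulator of G protein signalling in immune cells, was lower with Th1 cytokines by 2.21, 1.52 and 0.38 on the log2 scale, with signals of 79.8, 33.2 and 33.7 against 368, 95.5 and 43.9. Its log2 difference over 3 experiments was -1.37 (SE 0.45, unadjusted p = 0.00932). Spp1, the osteopontin gene, had 3012, 1820.2 and 2104 against 4590.03, 2350.4 and 3131, and a difference of -0.52 (SE 0.18, unadjusted p = 0.0129). The lysosomal protease gene Ctsd and the plasminogen activator gene Plau were lower in all 3, with ratios of -0.66, -0.22 and -0.94 for Ctsd and -0.64, -0.80 and -0.20 for Plau. Egr1, an immediate early transcription factor, was lower in all 3, with ratios of -0.91, -0.04 and -0.95. The decoy receptor gene Tnfrsf11b had -2.30, -0.27 and -1.11, and the IL-6 receptor gene Il6r -1.25, -0.68 and -0.54. Over 3 experiments the log2 differences of Egr1, Tnfrsf11b and Il6r were -0.63, -1.23 and -0.82.

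In the other direction, Fdps, an enzyme of isoprenoid synthesis, was higher with Th1 cytokines by 0.35, 0.55 and 0.50, and the cation channel gene Trpc1 by 0.55, 0.48 and 0.67. Other probe sets of Fdps, Ctsd and Egr1 did not keep 1 direction over the 3 pairs, and another of Trpc1 was lower in all 3. Several of the others rested on 1 array. Ppp6c, a phosphatase subunit, had 46.4 in the Th2 array of experiment 1 and between 116 and 356 in the other 11 arrays. Gtf2a2, a general transcription factor subunit, had 82.9 in the same array and between 173 and 531 in the others. The probe sets of Gnb1 and Rpl5 that were higher in all 3 pairs were also at least 3-fold lower in that array than in the other arrays of experiment 1.

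Markers of the cell types of the culture differed little in experiments 1 and 2. The median log2 difference of the oligodendrocyte and myelin markers was 0.04, 0.20 and -0.13 in the 3 experiments, that of astrocyte markers -0.10, 0.31 and -0.01, and that of microglia and macrophage markers -0.24, 0.14 and -0.01. None of these genes passed, with or without experiment 3. The summed signal of the microglia and macrophage markers was 21300, 18500 and 12800 with Th1 cytokines and 21600, 14900 and 15100 with Th2 cytokines. That of the oligodendrocyte and myelin markers was 12300, 21600 and 7620 against 12300, 18500 and 7910. In cultures of several cell types, fewer cells of a type and less RNA per cell cannot be told apart. Cd14, a microglial receptor for lipopolysaccharide, was the gene of the microglial list higher by more than 2-fold in both experiments 1 and 2, with 2722 and 2822 against 941 and 648, and 739 against 1991 in experiment 3 (adjusted p = 0.062 without it).

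**Figure D5:**
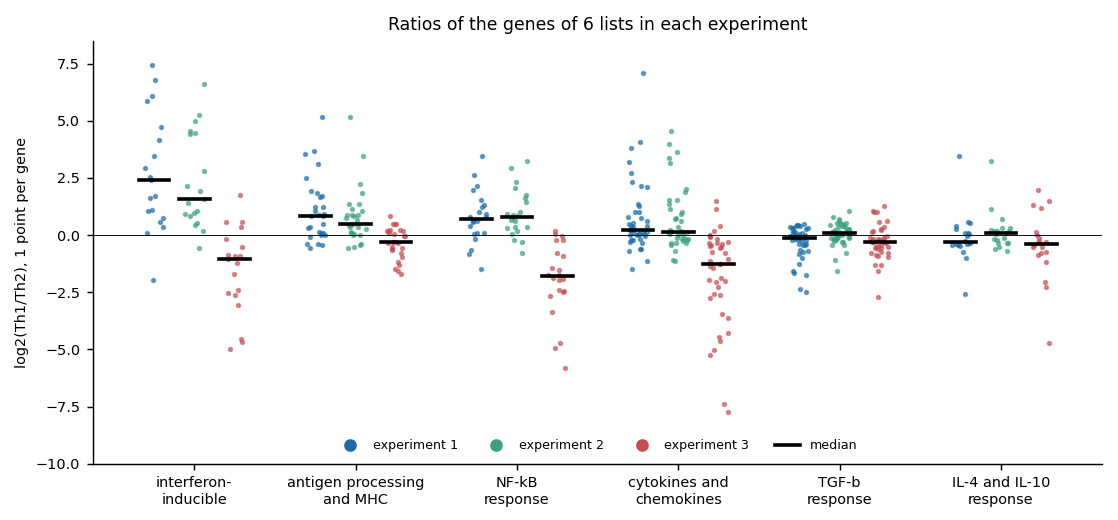
Log2 of Th1 over Th2 signal of the measured genes of 6 lists in each experiment, with 1 point per gene and black bars for the medians. The interferon-inducible medians are 2.40, 1.57 and -1.06 in experiments 1, 2 and 3, and those of the TGF-β response lie between -0.30 and 0.11.

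Cyp7b1, which hydroxylates oxysterols, passed without experiment 3 and lies outside the groups above. It had 740 and 263 with Th1 cytokines against 295 and 83.2 with Th2 cytokines, and 75.7 against 460.0 in experiment 3. Its log2 difference was 1.49 (SE 0.17, adjusted p = 0.0318) without experiment 3 and 0.13 (SE 0.60) with it.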

How the data were processed

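RNA was measured on 12 Affymetrix rat genome arrays, and their number limits precision. The intensity values deposited by the authors are linear probe-set signals that they calculated with dChip, whose settings and normalization between arrays are not given in the sources used here. Values of experiments 1 and 2 have 2 decimals and those of experiment 3 have 1. After 59 control probe sets, 8740 of 8799 were tested, of which 7006 carry 1 gene symbol, 308 several and 1426 none.

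Values below 0.1 were set to 0.1, log2 was taken and arrays were not rescaled. Th1 was compared with Th2 by limma (version 3.58.1, R 4.3.3; variance trend) on all 12 arrays with experiment as a replicate block, and again without experiment 3. All probe sets entered the Benjamini-Hochberg adjustment (called at an adjusted p under 0.05), and the fit was tested on simulated data. Experiments were paired by the code that titles share. Deviations from the group mean correlated at 0.439, 0.572 and 0.605 within experiments and at most 0.298 between them. As the 3 deviations of a group sum to 0, positive values within experiments force lower ones between them.

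Genes in lists were taken by their brightest probe set. Named genes were those of a panel of direct targets, the leading genes of each list, the 10 each way of lowest unadjusted p with the same sign in 3 pairs, and the largest ratios common to experiments 1 and 2. The members and lists were chosen with earlier results of these data known, and some genes are not reported here. Alternatives were other blocks, centring, quantile normalization, other floors, an offset, only the brighter probe sets, no trend, the methods' analysis of variance, and replicates left out.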

Additional observations from a re-analysis of the deposited data

How the results depend on the processing

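With 3 experiments, limma called 0 probe sets in the main fit and in the alternatives of scaling, floor, offset, filter, trend and block. Leaving out replicates gave 0 to 41 calls, with 41 without experiment 3, 17 without its array labelled Th1 and 1 without its array labelled Th2. The methods' screening criteria, more than 2-fold with an analysis of variance p under 0.2, gave 55 higher and 98 lower (153), and 0 after Benjamini-Hochberg. Without the replicate block, 5 were higher and 24 lower at an unadjusted p under 0.05. In experiments 1 and 2, alternatives were added after seeing the data. The 41 calls became 90 with centred arrays (82 higher, 8 lower) and 83 with quantile normalization (74 higher, 9 lower). With only the brighter probe sets 57 were higher and 4 lower, with an offset of 16 46 and 2, and with a floor of 1 40 and 1. Fewer were called with a floor of 16 (4), only the Th1 and Th2 arrays (7), no variance trend (6), a random replicate block (3) and no replicate block (0). Leaving out 1 array gave 0 to 5. Of the 41, 38 were also called with centring and 41 with quantile normalization. The genes refitted under these alternatives were chosen as called in experiments 1 and 2 or as more than 2-fold the same way in both. A change of direction there was therefore hardly possible, and none of them changed direction. With 3 experiments some did when replicates were left out, and the ranges of their log2 differences were -1.60 to 5.81 for Ccl5, -2.0 to 3.71 for Ccl20, -0.46 to 4.01, -0.25 to 3.87 and -0.86 to 3.75 for Il1b, -0.75 to 3.35 for Vcam1, -0.26 to 2.46 and -0.29 to 1.96 for Icam1, -0.30 to 2.38 for Cx3cl1, -0.20 to 2.10 and -0.22 to 2.02 for Nfkbia, -0.19 to 2.06 for RT1-M3-1, -0.64 to 1.49 for Cyp7b1, -1.27 to 0.085 for Ifngr1 and -1.68 to 0.016 for Vsir. List medians in experiments 1 and 2 moved by more than their spread to 0.48 (floor of 16) and 0.45 (offset of 16) for antigen processing, 0.70 (quantile), 1.12 (brighter probe sets only) and 0.66 (offset) for the NF-κB response, and 0.0074, 0.95 and 0.084 (floor of 16, brighter probe sets only, offset) for cytokines. Leaving out arrays gave 0.52 to 0.85, 0.41 to 0.90 and 0.093 to 0.31, and with 3 experiments 0.29 to 2.32 for the interferon-inducible genes, 0.12 to 0.88 for antigen processing, -0.49 to 0.77 for the NF-κB response, -0.41 to 0.19 for cytokines and -0.44 to 0.079 for the IL-4 and IL-10 response. Where an arm was left with 1 array, it was assumed to vary like the other groups. The cause was not tested.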
